A study of Caenorhabditis elegans with 2 samples.

Results

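HIF-1 binding at promoters on the autosomes of Caenorhabditis elegans was described from 222 peak summits, which were 47.3% (95% Wilson interval 42.9 to 51.9) of the 469 autosomal summits in a reproducible set of 631. A summit is the position of highest enrichment in a peak of chromatin immunoprecipitation sequencing (ChIP-seq). A summit was taken when it lay no more than 1000 bp before or 200 bp after the start of a protein-coding gene, and not from 500 bp before to 200 bp after that of a tRNA, snoRNA or snRNA gene. Of the 222, 81 lay at divergent promoters, where the windows of neighbouring genes read in opposite directions meet, 134 lay at the promoter of 1 gene, and 7 lay in windows shared in other arrangements. The remaining 247 autosomal summits served for comparison. These included 93 between genes, 67 in introns, 20 in exons and 67 beside small RNA gene starts. All animals were whole OR3350 hermaphrodites, L4 larvae taken 55 h after synchronisation as starved first-stage larvae, with GFP and FLAG fused to the C-terminal end of HIF-1. Both replicates, 2 in all, belonged to this 1 group, so no condition was compared, and the labels name no oxygen level. The whole animal was used, so the tissues in which a promoter was bound cannot be told apart.

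HIF-1 is the worm hypoxia-inducible factor, which binds DNA together with AHA-1. When oxygen is plentiful the hydroxylase EGL-9 modifies HIF-1 and the ubiquitin ligase subunit VHL-1 marks it for destruction, and RHY-1 is a further negative regulator. The pair recognises the short core RCGTG, where R is A or G, in hypoxia response elements. In the compact worm genome many neighbouring genes read away from each other across a short shared stretch, so 1 bound site can serve both. Many worm transcripts are trans-spliced to a leader, so an annotated gene start need not be the point where transcription begins.

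The sequences at strong summits of both classes are shown for the core and what surrounds it. Each is the summit and 50 bases to either side of it on the plus strand of the RefSeq WBcel235 genome (ce11). Capitals mark RCGTG, or CACGT or CACGC where the core reads on the other strand. The divergent summits of highest signal outside windows that overlap an exon come first, then the strongest divergent summit without the core.
tasp-1/K01G5.10, chrIII:10759198-10759298: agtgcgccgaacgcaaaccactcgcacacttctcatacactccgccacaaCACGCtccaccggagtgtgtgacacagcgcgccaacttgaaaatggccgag
Y17G9B.5/rpl-20, chrIV:4750016-4750116: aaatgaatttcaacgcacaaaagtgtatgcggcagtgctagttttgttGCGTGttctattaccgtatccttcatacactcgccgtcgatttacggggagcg
rpl-15/K11H12.8, chrIV:654871-654971: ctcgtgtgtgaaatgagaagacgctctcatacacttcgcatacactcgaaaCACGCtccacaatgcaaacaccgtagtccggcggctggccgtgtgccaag
F29B9.11/jmjd-1.2/mrps-21, chrIV:4660465-4660565: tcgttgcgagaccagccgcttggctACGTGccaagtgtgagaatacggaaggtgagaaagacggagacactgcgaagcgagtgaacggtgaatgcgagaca
Y55F3AR.2/cct-8, chrIV:1094277-1094377: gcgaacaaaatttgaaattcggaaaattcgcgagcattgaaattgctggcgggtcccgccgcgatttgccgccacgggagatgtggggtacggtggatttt

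Promoters of 1 gene are shown in the same way, with rhy-1, nhr-57, rpl-3 and taap-1 chosen from those of highest signal and C34B4.2 as a summit without the core.
rhy-1, chrII:9160391-9160491: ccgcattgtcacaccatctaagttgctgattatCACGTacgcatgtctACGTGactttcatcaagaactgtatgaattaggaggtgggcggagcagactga
nhr-57, chrV:4131661-4131761: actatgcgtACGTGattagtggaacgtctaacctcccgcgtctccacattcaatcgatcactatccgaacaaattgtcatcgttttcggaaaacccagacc
rpl-3, chrIII:3867530-3867630: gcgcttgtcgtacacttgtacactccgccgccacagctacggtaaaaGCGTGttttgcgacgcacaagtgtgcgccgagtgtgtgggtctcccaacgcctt
taap-1, chrII:8483934-8484034: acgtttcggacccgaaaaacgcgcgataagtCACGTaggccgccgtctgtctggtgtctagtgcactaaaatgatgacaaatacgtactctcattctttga
C34B4.2, chrV:13082647-13082747: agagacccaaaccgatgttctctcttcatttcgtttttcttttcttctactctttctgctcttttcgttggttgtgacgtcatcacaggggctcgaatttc
In the windows of tasp-1, rpl-20, rpl-15 and rpl-3 the core was of the GCGTG form, and in those of rhy-1, nhr-57 and taap-1 it was ACGTG. The sequence of rhy-1 holds a core on each strand.

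Divergent promoters held far more HIF-1 summits than their length would give. They made up 10.6% of the autosomal promoter bases, counted exactly, and held 36.5% (95% Wilson interval 30.4 to 43.0) of the promoter summits. Their density was 41.7 summits per Mb, against 8.33 per Mb at promoters of 1 gene, a ratio of 5.01. The few windows shared in other arrangements, 0.243 Mb in all, held 28.8 summits per Mb, from 7 summits, so a high density was not seen at divergent promoters alone. Promoter windows as a whole had 12.2 summits per Mb, against 3.84 per Mb for the other summits in the other autosomal bases. The ratio between divergent and 1-gene promoters was 4.78 when the 631 strongest peaks of replicate 1 alone were used, with 38.6 against 8.08 per Mb, and 4.60 for replicate 2 alone, with 36.6 against 7.96.

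A base between diverging starts is close to a start more often than a base at a promoter of 1 gene. Counting only bases up to 300 bp upstream of any coding gene start, the divergent share of bases was 18.5%, and 62 of the 129 summits there were divergent (48.1%, 95% Wilson interval 39.6 to 56.6). The density in this stretch was 67.9 divergent summits per Mb, against 15.5 for promoters of 1 gene, a ratio of 4.37. Of all 17242 autosomal protein-coding genes 302 had a member summit, which is 1.75%. Counted by genes, 152 of the 3851 genes with a divergent promoter had a summit (3.95%, 95% interval 3.38 to 4.61), against 150 of the 13391 other genes (1.12%, 0.955 to 1.31). A gene counted as having a divergent promoter when the point 212 bp upstream of its start, the median position of the summits, lay in divergent windows. The difference was 2.83 percentage points (95% Newcombe interval 2.22 to 3.51). A divergent summit counts for both of its genes here, so the genes are not independent and this interval is too narrow.

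The weaker a peak, the nearer these shares came to those of the bases. Each replicate has a longer relaxed list, which also holds background, and its autosomal promoter peaks were split by rank. In replicate 1 the divergent share of promoter peaks was 35.4%, 30.4%, 21.2%, 17.9% and 12.0% from the strongest bin to the weakest. In replicate 2 it was 34.1%, 23.3%, 18.6%, 16.6% and 13.4%. The share fell in every step in both replicates, towards the 10.6% of the bases. The promoter share of all autosomal peaks fell as well. In replicate 1 it was 47.1% in the strongest bin, or 212 of 450, and 1533 of 6121 peaks in the weakest, and in replicate 2 it was 44.3% in the strongest and 24.7% in the weakest. Promoter windows make up 22.1% of the autosomal bases.

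**Figure D1:**
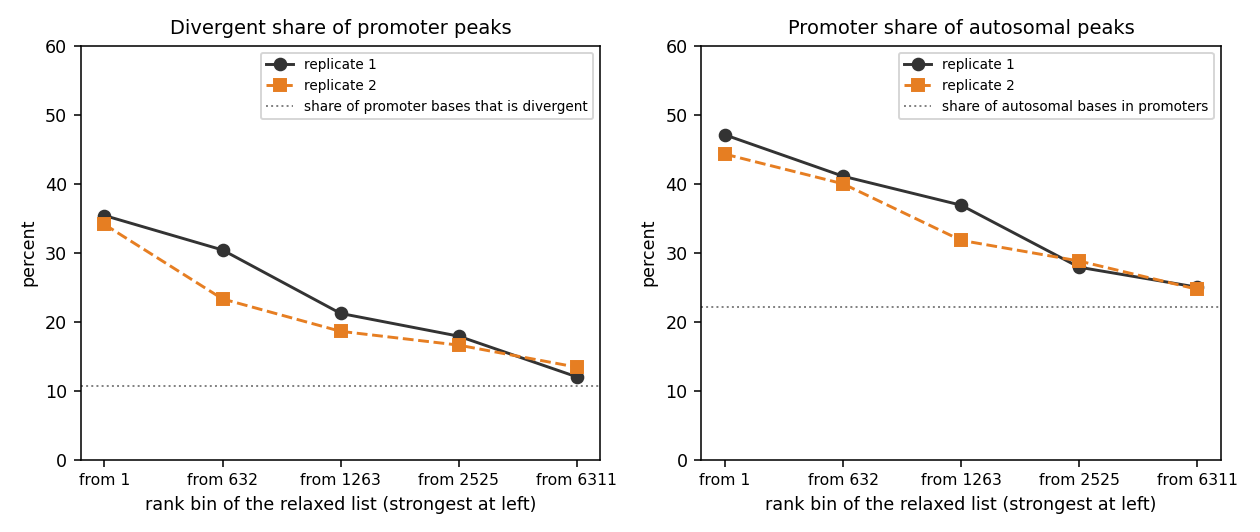
Divergent share of promoter peaks (left) and promoter share of autosomal peaks (right), in percent, by rank bin of each replicate's relaxed list; the tick gives the first rank of the bin and dotted lines give the share of bases. Both shares fall in every step in both replicates, the divergent one to 12.0% and 13.4% in the weakest bin.

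The strongest divergent summits lay at pairs of genes with varied roles. The signal is the authors' value of a peak relative to the control, with no read counts behind it in the lists, so its depth is unknown. The strongest divergent summit, between tasp-1, a homologue of the protease taspase, and K01G5.10, had a signal of 320, with 175 in replicate 1 and 142 in replicate 2. It lay 59 bp upstream of tasp-1 and 726 bp upstream of K01G5.10. Between tag-340 and nhl-2, which encodes a TRIM-NHL protein of the microRNA pathway, the signal was 235, with 122 and 114 in replicates 1 and 2. Between Y17G9B.5 and the large-subunit ribosomal protein gene rpl-20 it was 220, with 121 and 94.9. The ribosomal protein gene rpl-15 shared a summit of 198 with K11H12.8, with 95.6 in replicate 1 and ranks of 75 and 51 in replicates 1 and 2. These 4 summits ranked between 25 and 75 in both replicates.

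The other divergent summits among the 10 strongest had signals of 193 to 159. The histone demethylase gene jmjd-1.2 shared a summit of 193 with F29B9.11, and the start of mrps-21, a mitochondrial ribosomal protein gene, lay 998 bp away. The translation factor gene iff-2, whose product is eIF5A, shared 179 with F54C9.14, with 114 in replicate 1 and 65.2 in replicate 2. Signals of 176 and 174 lay between nifk-1 and T04A8.8 and between drr-2, an eIF4H homologue linked to dietary restriction, and set-16, an MLL-type histone methyltransferase gene. At R08E5.1 and rips-1, whose product is named as an interactor of RHY-1, the signal was 168, with 97.1 and 71.7 in the replicates. The cytochrome b subunit gene of succinate dehydrogenase, mev-1, shared 159 with jmjd-4, and ced-9, the Bcl-2 homologue, starts 998 bp away. All 10 summits held RCGTG within 50 bp.

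Among the promoter summits the highest signals were at promoters of 1 gene, and 3 of the first 4 were at genes listed as HIF-1 dependent. Summits outside this set reached 688 on the autosomes. At rhy-1 the signal was 838, with 427 in replicate 1 and 418 in replicate 2, at 938 bp upstream of the start. The nuclear hormone receptor gene nhr-57 had 670 (398 and 271 in the replicates), and F26H9.5, a putative phosphoserine aminotransferase gene of serine synthesis, had 614 (310 and 308). The sulfide quinone oxidoreductase gene sqrd-1 had 590, with 296 and 297. None of the divergent summits reached these values. The signal then dropped to 342 at rpl-3, a large-subunit ribosomal protein gene, with 173 and 172. It was 320 at a second summit of F26H9.5, 272 at pck-1 (phosphoenolpyruvate carboxykinase), 247 at taap-1, 222 at the glutathione S-transferase gene gst-19 and 215 at phdh-1, the phosphoglycerate dehydrogenase gene that begins serine synthesis. Of these 10 summits, 9 held RCGTG, the exception being the second one of F26H9.5.

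Apart from these extremes the classes had like signals. Divergent summits had a median signal of 76.8 (54.1 to 320), and 1-gene summits one of 73.8 (54.1 to 838). The ratio of medians was 1.04 for the pooled signal, 1.01 in replicate 1 (42.9 against 42.3) and 0.979 in replicate 2 (37.0 against 37.8). The quartiles were 61.9 and 114 for divergent and 62.1 and 104 for 1-gene summits. Of the 20 strongest members 5 were divergent and 15 were at 1 gene, and a signal of 200 or more was found at 3 divergent and 12 1-gene summits. Signals of 100 or more were found at 30.9% of divergent and 28.4% of 1-gene summits, a difference of 2.51 percentage points (95% Newcombe interval -9.64 to 15.3). The weakest members were knl-3, a kinetochore gene, and the divergent pair ears-2 and uncp-18, at 54.1 each, and the ribosomal protein gene rpl-41.2 at 54.2.

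**Figure D2:**
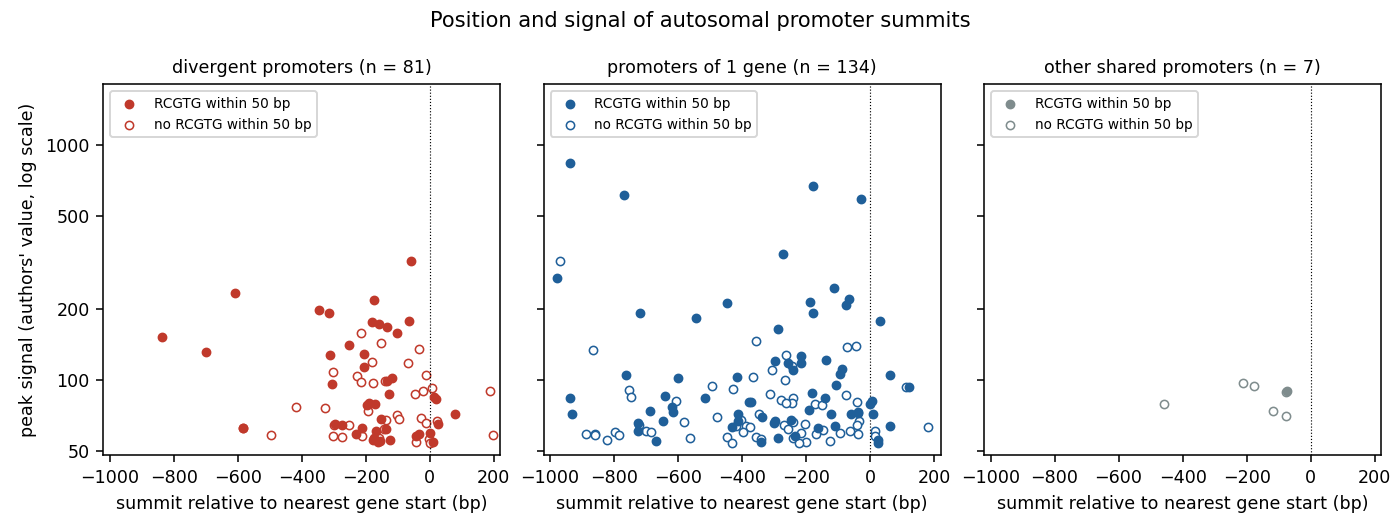
Signal of each promoter summit (vertical, log scale) by its position relative to the nearest gene start (horizontal, bp, negative upstream), for divergent promoters, promoters of 1 gene and other shared promoters; filled points hold RCGTG within 50 bp of the summit. Divergent summits crowd near the start, and the 4 signals above 500 are all at promoters of 1 gene.

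The replicates ranked the strongest sites alike and the weaker ones less so. A summit within 100 bp was found in both relaxed lists for all 81 divergent and 127 of the 134 1-gene summits. The other 7 were in 1 list each. By the pooled signal the strongest of them was at mog-4, a splicing helicase gene, with 118, and with 72.4 in replicate 1. They also included the second summits of nhr-57 and sqrd-1, found in replicate 2 with signals of 50.9 and 81.7. Over the 215 members in both lists, Pearson's r of the log2 signals was 0.767 and Spearman's rho of the signals was 0.590. These describe peaks that share their libraries and were selected for reproducibility between these replicates. The median log2 ratio of replicate 2 over replicate 1 was -0.23. More than a 2-fold difference was found at 18 members, 14 of them higher in replicate 1 and 4 higher in replicate 2. Of the 81 divergent summits 3 were among the 18, and of the 127 1-gene summits 14 were.

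The largest ratios between replicates in either direction, at members chosen after their values were seen, were those of the divergent pair F25H9.7 and F25H9.6 with 12.9 in replicate 1 and 45.7 in replicate 2, and upp-1, a uridine phosphorylase gene, with 41.3 and 14.8. Among the 631 strongest peaks of both replicates were 52 of 81 divergent (64.2%) and 73 of 134 1-gene summits (54.5%). The difference of 9.72 percentage points had a 95% Newcombe interval of -3.89 to 22.5, which holds 0. It was 16.5 points (2.68 to 29.3), past 0, when replicate summits had to lie within 50 bp. It was 2.26 points (-11.1 to 15.0) when they had to lie within 200 bp. That was 1 of 10 other alternatives, and the interval held 0 in all 10.

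**Figure D3:**
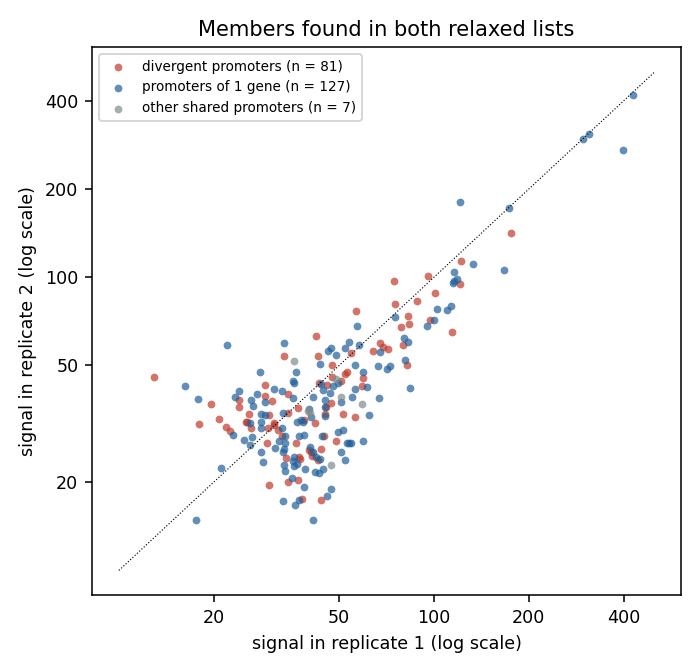
Signal of each member in replicate 1 (horizontal) and replicate 2 (vertical), both on log scales, for the 215 members with a summit in both relaxed lists; the dotted line marks equal values. Points near the line above 100 give way to a wide cloud below 50 in both classes.

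Summits lay close upstream of genes, and closer at divergent promoters. The median position was 158 bp upstream of the nearest start at divergent promoters (quartiles 230 and 47 bp upstream), against 272 bp upstream at promoters of 1 gene (510 and 124 bp). With a start on either side, the nearest one is closer by construction. Of all members, 186 lay outside coding genes (83.8%), 18 in a 5′ UTR and 5 in coding sequence. At the upstream limit the last members inside were pck-1 at 978 bp with a signal of 272, F26H9.5 at 969 bp with 320 and Y44A6C.1 at 938 bp with 83.9. The first outside were otub-2 at 1004 bp with 66.6, ppm-2 at 1007 bp with 133 and F58D5.5 at 1029 bp with 59.1. At the downstream limit, F40F11.3 at 198 bp (58.8), F57B9.1 at 187 bp (90.1) and a second summit of sqrd-1 at 179 bp (63.3) were inside, and summits at rhy-1 (224 bp, 115), hrpk-1 (226 bp, 60.6) and F54F2.6 (303 bp, 56.8) were outside.

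At divergent promoters most summits sat between the starts. The starts of a bound pair were a median of 496 bp apart (15 to 1771), against 658 bp for all 2382 head-to-head neighbours up to 2000 bp apart. The summit lay between the starts in 71 of 81 cases. The rule reaches 1000 bp before a start but only 200 bp after it, which favours such positions. The share of bases between the starts was not counted. The summit was a median of 167 bp from the nearer and 384 bp from the farther start. Of the 81, 55 lay within 500 bp of both starts (67.9%, 95% Wilson interval 57.1 to 77.1), whereas 38.1% of the bases of divergent promoter windows do. In 33 of the 71 the summit was in the middle of 3 equal stretches between the starts (46.5%, 35.4 to 58.0). Where starts are far apart, the rule itself keeps the summit near the middle. Where starts were up to 500 bp apart, 19 of 41 summits held RCGTG, and where they were over 500 and up to 1000 bp apart 19 of 31 did. Among promoters of 1 gene, 53 of the 134 also had an upstream neighbour head to head, too far away for the summit to be in its window, and 81 had one in the same direction.

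The core was at about the same share of summits in both classes. RCGTG lay within 50 bp of 44 of 81 divergent summits (54.3%, 95% Wilson interval 43.5 to 64.7) and 68 of 134 1-gene summits (50.7%, 42.4 to 59.1). The difference of 3.57 percentage points had a 95% Newcombe interval of -10.1 to 16.9. Over all members the share was 50.9%, against 43.7% at the other autosomal summits, a difference of 7.18 points (-1.86 to 16.1). At 16803 autosomal promoters without a summit, in windows centred 212 bp upstream of the start, the share with RCGTG was 14.3%. The members exceeded these by 36.6 points, with an interval that leaves out 0. Mean GC content was 46.6% at the members and 33.9% in those windows, and the shares were not adjusted for it. In windows centred 500 bp from the member summits the share was 17.1% on the gene side and 14.4% on the upstream side. Where a core was present, the nearest one lay a median of 20 bp from divergent summits and 22 bp from 1-gene summits. Cores read towards the nearest gene in 46.4% of cases at divergent promoters and in 50.5% at promoters of 1 gene, with 95% Wilson intervals that hold 50%. The sequence CACGTG reads the same on both strands, so it counts as 1 core in each direction. It lay at 6 of 81 divergent and 9 of 134 1-gene summits. Such sites pull the shares towards 50%, and the intervals treat their cores as independent, so no conclusion on direction is drawn. More than 1 core was found at 9 of 81 divergent and 27 of 134 1-gene summits, where a single CACGTG counts as 2 cores.

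**Figure D4:**
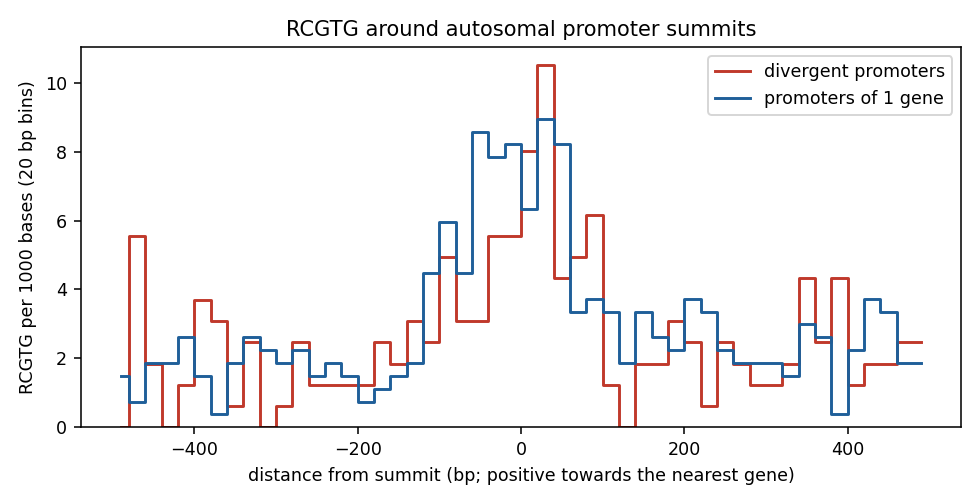
Number of RCGTG cores per 1000 bases in bins of 20 bp (vertical) by distance from the summit (horizontal, bp, positive towards the nearest gene), for divergent promoters and promoters of 1 gene. Both classes are highest within about 100 bp of the summit, with 10.5 cores per 1000 bases in the highest bin of divergent and 8.96 in that of 1-gene promoters.

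The share with a core was lower among weak peaks than among strong ones, by an interval that leaves out 0 at promoters of 1 gene and one that holds 0 at divergent promoters. Split into 3 equal bins from strong to weak, divergent summits held RCGTG in 18, 12 and 14 of 27 cases each, and 1-gene summits in 31 of 45, 26 of 45 and 11 of 44. From the weakest to the strongest bin the share differed by 14.8 points at divergent promoters (95% Newcombe interval -10.8 to 37.9) and by 43.9 points at promoters of 1 gene (23.4 to 59.5). In the weakest bin divergent summits, at 14 of 27, exceeded 1-gene summits, at 11 of 44, by 26.9 points (3.88 to 47.1). These bins were examined among several splits and the intervals are not adjusted for that. In the weakest bin of replicate 1's own strongest peaks the shares were 52.0% for divergent and 44.2% for 1-gene promoters, and in replicate 2 they were 43.5% and 23.8%. In the strongest bin they were 56.0% for divergent and 70.5% for 1-gene promoters in replicate 1, and 70.8% and 76.7% in replicate 2. The share was lower in the weakest than in the strongest bin in both classes and both replicates. At divergent promoters in replicate 1 it barely differed, with 14 of 25 in the strongest, 12 of 25 in the middle and 13 of 25 in the weakest bin. Whether the steps of the classes differ was not tested.

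Other sequence features were counted in the same windows. Their mean GC content was 48.2% at divergent summits and 45.5% at 1-gene summits, against 47.9% at the other autosomal summits and 33.9% at promoters without a summit. TGCGTC, a sequence taken from an earlier open search of these data, was at 18.5% of divergent and 19.4% of 1-gene summits, against 2.89% of promoters without a summit. GAGAGA, from the same search, was at 13 of 81 divergent and 33 of 134 1-gene summits, against 6.69% of promoters without a summit. The other autosomal summits held both sequences as well. TGCGTC was at 15.0% of them and 19.8% of all members, a difference of 4.84 points (95% Newcombe interval -2.02 to 11.8). GAGAGA was at 30.8% of them and 22.1% of all members, a difference of -8.70 points (-16.5 to -0.679, not adjusted for the 11 motifs). Neither contains RCGTG, and the choice of both on these data makes their excess over other promoters a description. Both were searched on each strand, as were all 11 motifs. TGATAA, the site of GATA factors, which direct intestinal genes, was at 3 of 81 divergent summits (3.70%) and 19 of 134 1-gene summits (14.2%). The difference was -10.5 points (95% Newcombe interval -17.8 to -2.23, not adjusted for the 11 motifs). At promoters without a summit it was 11.1% for divergent and 10.9% for 1-gene promoters. The heat shock element pair TTCNNGAA was at 6.17% of divergent and 2.24% of 1-gene summits, a difference of 3.93 points (-1.49 to 11.6). At promoters without a summit it was at 6.81%. The forkhead site TGTTTAC was at 0 of 81 divergent and 4 of 134 1-gene summits, and at 1.57% of promoters without a summit.

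A repeated CATACACT stands out in the printed divergent sequences, and was searched after they were seen. It occurs in the windows of tasp-1, rpl-20 and rpl-15, on both strands at rpl-20. Over all members it was at 4 of 81 divergent and 1 of 134 1-gene summits, against 29 of 16803 promoters without a summit. The median signal of the 5 members with it was 198, against 74.3 for the other 217. The sequence was read off the strongest summits, so its count and its signal are not separate from that choice.

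The bound genes of the HIF-1 lists were all at promoters of 1 gene, and those of the lists of protein synthesis and folding mostly at divergent ones. Against the 1.75% of all autosomal coding genes with a member summit, 27 gene lists were counted. Bound genes were classed by their strongest summit. Having a divergent promoter was judged at the point 212 bp upstream of the start, so the 2 counts can differ. Of the autosomal genes listed as HIF-1 dependent, 9 of 16 were bound (56.2%, 95% Wilson interval 33.2 to 76.9), 0 of them at a divergent promoter. They were led by rhy-1, nhr-57 and sqrd-1, and none of the 16 listed genes has a divergent promoter. The list itself thus left little room for a divergent count. On none of the lists is rips-1, which was bound at a divergent promoter (168). Of the HIF-1 pathway, 2 of 10 were bound, rhy-1 and egl-9 (122). In sulfur amino acid metabolism 3 of 21 were bound, sqrd-1, the persulfide dioxygenase gene ethe-1 (140) and the mercaptopyruvate sulfurtransferase gene mpst-3 (105). The serine and one-carbon list had 2 of 9, F26H9.5 and phdh-1. In glycolysis and gluconeogenesis 6 of 25 were bound, led by pck-1, the aldolase gene aldo-1 (127) and the pyruvate carboxylase gene pyc-1 (112), and all 6 summits held RCGTG.

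Grouped after their values were seen, these 5 lists held 75 distinct genes, of which 17 were bound. Every one of the 17 was bound at a promoter of 1 gene, and counting only the strongest summit of each gene, 15 held RCGTG. Second summits, not counted here, held no core at rhy-1, sqrd-1 and F26H9.5, and 1 at nhr-57. Of the 75 genes 15 have a divergent promoter, and 22.3% of all autosomal coding genes do. The lists were drawn from knowledge of HIF-1 and with earlier results of these data known, so their excess is not separate evidence. The median signal of the 17 strongest summits was 127, above the 76.3 of all members, which include second summits.

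Lists of protein synthesis and folding were bound mostly at divergent promoters, which their genes also have more often than autosomal coding genes as a whole. Of cytosolic ribosomal protein genes 15 of 76 were bound (19.7%), 9 of the 15 at divergent promoters, and 47 of the 76 have one (61.8%). By these 2 counts, classed at the summit and 212 bp upstream of the start, the bound genes were not more often divergent than the list. They were led by rpl-3, rpl-20 and rpl-35 (212), and 9 of the 15 summits held RCGTG. Of translation factors 7 of 41 were bound, 6 of them divergent (56.1% of the list has such a promoter), led by iff-2, the initiation factor gene eif-3.C (111) and the elongation factor gene eef-1A.1 (98.8). Chaperone genes had 12 of 63 bound (95% Wilson interval 11.2 to 30.4%), 9 at divergent promoters (50.8% of the list has one), led by the chaperonin subunit gene cct-8 (158) and the HSP70 genes F44E5.4 and F44E5.5 (144), and 2 of their 11 summits held RCGTG. The cct-8 summit is the one printed among the sequences without a core. Of splicing factors 3 of 56 and of the proteasome 2 of 33 were bound, all 5 at divergent promoters. Together, again grouped after the values were seen, the ribosomal, chaperone, translation, proteasome and splicing lists had 39 of 269 genes bound, 29 of the 39 at divergent promoters. Of the 269, 156 have a divergent promoter (58.0%). The 35 distinct summits of the 39 bound genes held RCGTG in 17 cases and had a median signal of 96.9.

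Energy and stress lists were bound at both kinds of promoter. Among genes of the citric acid cycle and glyoxylate shunt, 3 of 19 were bound, all at divergent promoters and all with RCGTG. They were mev-1, the malate dehydrogenase gene mdh-1 (153) and the aconitase gene aco-2 (83.6). Of the respiratory chain 5 of 45 were bound, 2 at divergent promoters, led by the cytochrome c oxidase subunit gene cox-5A (165), mev-1 and the ATP synthase inhibitor gene mai-2 (118). Among unfolded protein response genes the count was 4 of 14, 3 at divergent promoters, led by the mitochondrial chaperone gene hsp-60 (129), the stress transcription factor gene xbp-1 (79.6) and the disulfide isomerase gene pdi-3 (62.7), and all 4 summits held RCGTG.

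In 6 divergent pairs both genes were on a list. F44E5.4 and F44E5.5, whose products are near-identical HSP70 proteins, shared a signal of 144. The chaperone gene hsp-110 and the proteasome gene rpn-3 shared 114 between starts 444 bp apart. The pair of the J-domain gene dnj-19 and the receptor gene nhr-47 had 105. The elongation factor gene eef-1B.1 and aco-2 shared 83.6, clu-1 and the splicing factor gene prp-40 shared 78.8, and the splicing factor genes rsp-2 and rsp-1 shared 54.6. A shared summit does not say which of the genes it acts on.

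Chemoreceptor and C-type lectin genes were bound less often than the 1.75% of all coding genes, with intervals below it, and the intervals of the other lists in this group hold it. Of 1320 chemoreceptor genes 3 were bound (0.227%, 95% Wilson interval 0.0773 to 0.666), srw-67 (103), srh-17 (81.0) and sri-5 (59.0), and all 3 summits held RCGTG. F-box genes had 3 of 299, led by fbxb-85 (87.5), and nuclear hormone receptors 5 of 246, led by nhr-57. C-type lectins had 0 of 234, collagens 0 of 129, neuropeptides 0 of 106, cytochrome P450 genes 0 of 67 and the vacuolar ATPase 0 of 17, with upper limits between 1.62% and 18.4%. Mitochondrial ribosomal protein genes had 1 of 70 (mrps-21), and 37.1% of them have a divergent promoter. Histone genes had 1 of 46 (his-37, 139), and 82.6% of them have one. Over all autosomal coding genes with a divergent promoter only 3.95% had a summit, so most such genes were without one in any case. Ubiquitin conjugation had 2 of 64 bound (ubc-6 and usp-4), aminoacyl-tRNA synthetases 2 of 32 (cars-1 and ears-2), homeobox genes 1 of 52 (ceh-38) and regulators of oxidative stress and longevity 1 of 19 (wdr-23).

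**Figure D5:**
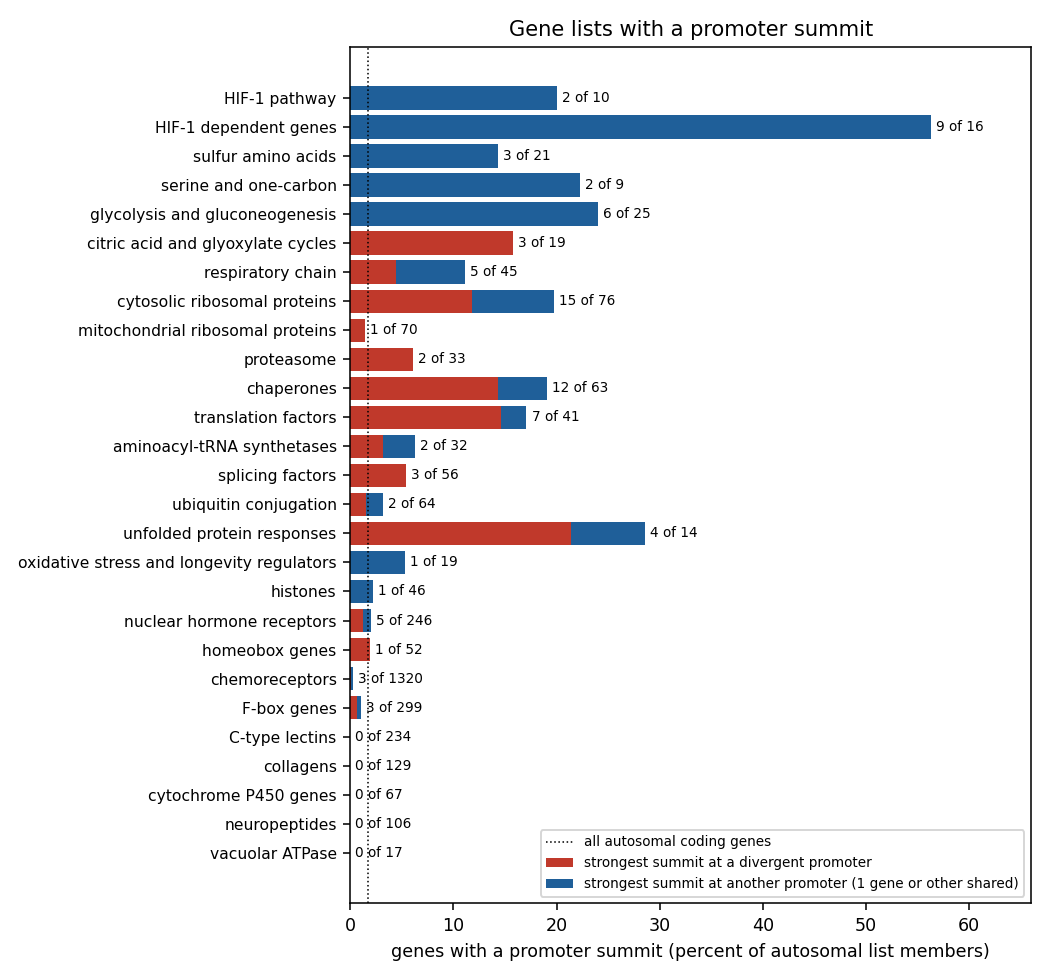
Percent of the autosomal genes of each list with a promoter summit, split by whether the strongest summit of the gene lay at a divergent promoter or another one; the text gives bound and listed genes and the dotted line marks 1.75% of all autosomal coding genes. The 5 uppermost bars, HIF-1 and metabolic lists, hold no divergent part, whereas ribosomal, chaperone and translation lists are mostly divergent. The next metabolic list, citric acid and glyoxylate cycles, has all 3 bound genes at divergent promoters.

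Members were spread over all autosomes and at some genes came in pairs. There were 40, 46, 47, 42 and 47 on chromosomes I to V, which is 13.9, 13.3, 17.8, 12.8 and 9.41 per 1000 coding genes, with the highest divergent share on III (44.7%) and the lowest on V (27.7%). At 11 genes 2 member summits lay 199 to 299 bp apart, among them rhy-1, nhr-57, sqrd-1 and F26H9.5. Their second summits were mostly weak, at 64.5 for rhy-1, 56.0 for nhr-57 and 63.3 for sqrd-1. The 7 members in other shared windows had signals of 70.8 to 97.5, led by the translocon subunit gene sec-61.G, and 1 of the 7 held RCGTG. A further 24 promoter summits were left out beside small RNA genes. The highest of these were at egg-5 (181) and H41C03.3 (179), beside the spliced leader RNA genes sls-2.4 and sls-2.1, and F38E11.9 (124).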

How the data were processed

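Whole L4 hermaphrodites of 1 group were measured by ChIP-seq in 2 replicates with separate biosamples in the labels. The authors deposited peak lists with a signal value per peak, relative to a control. Its formula, the aligner, the caller and the reproducibility threshold were not given in the sources used here. No read counts are listed, so depth is unknown. Each relaxed list was made per replicate, and the thresholded set came from both. The ce11 lists were used, no coordinates were converted, and the ce10 lists were not used.

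Summits were set against Ensembl release 115 (WBcel235) gene starts and the RefSeq genome with Python 3.11.15, numpy 2.4.6, pandas 2.3.3 and scipy 1.17.1, and plotted with matplotlib 3.10.9. The steps were tested on simulated data. Motifs on either strand counted within 50 bp of a summit. Shares have 95% Wilson intervals and differences 95% Newcombe intervals, and both reflect only how many peaks or genes were counted. Differences were called where the interval leaves out 0. For promoters without a summit the window was centred 212 bp upstream. Peaks are not replicates, so no p-value was computed.

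Members, gene lists and motifs were chosen with earlier results of these data known. Named genes are those at the 10 strongest members of each class, the 3 weakest members, the 3 summits on either side of each limit, the 3 strongest of each list, and pairs with both genes listed. Genes named outside this rule were chosen after their values were seen. Of the list members, 1 (mpst-5) matched no coding gene.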

Additional observations from a re-analysis of the deposited data

How the results depend on the processing

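Promoter members numbered 112 in the stronger 50% of autosomal summits and 208 to 212 without a replicate. The divergent share of members was 29.4% with the narrower window, reaching 500 bp upstream and 100 bp downstream, and 34.1 to 35.4 without a replicate. The divergent minus 1-gene difference in RCGTG changed sign, to -4.76 points with the wider one of 2000 and 500 bp, -2.01 in the stronger 50% and -4.18 for ACGTG, and it ran from -2.62 to 4.61 without a replicate. Every one of its intervals held 0. The difference in the share among the strongest of both replicates was 16.5 points with replicate summits within 50 bp and 2.26 with them within 200 bp. The interval held 0 in 10 of its alternatives and left out 0 only within 50 bp. The ratio of median signal was 1.00 with summits within 300 bp merged, an alternative chosen after seeing the data, and 1.01 to 1.06 without a replicate. Promoter minus other autosomal RCGTG was 11.8 points (2.77 to 20.6) with the start of any transcript, and 4.46 to 5.83 without a replicate. The share within 500 bp of both starts was 67.6 to 72.0 and the median position -222 to -210 bp without a replicate. The cause of these shifts was not tested. No paired analysis was possible because there is only 1 group. Unknown depth limits what can be said of weak peaks.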
